A study of Homo sapiens with 10 samples.

Results

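MicroRNAs are short RNAs cut from hairpins in longer transcripts, and each lowers the output of messenger RNAs that pair with its seed, bases 2 to 8 of the mature strand. ZEB1 is a zinc finger repressor of epithelial genes that recognises CAGGTG and related E-boxes, and its mutual repression with the miR-200 family is a textbook switch of the epithelial-mesenchymal transition (EMT). The sites described here lie at other microRNA genes. They are the 282 of 52981 consensus ZEB1 sites whose midpoint fell within 1 kb of a RefSeq microRNA gene on GRCh38, with the miR-200 genes and MIR205 left out by name. None of those named genes had a site that close, so the omission removed 0 sites. Among the consensus sites the choice went by position alone, with earlier results of these data known. The consensus sites themselves rest on peaks in these data.

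ZEB1 was mapped by CUT&RUN, in which an antibody directs a nuclease to occupied DNA and the released fragments are sequenced. The cells came from a line of human breast cancer, MDA in the labels, without estrogen, progesterone or HER2 receptors, and all groups were grown in serum-containing DMEM. Treated cells, with the line name MDA_ERI, received 300 nM eribulin, a drug that blocks microtubule growth, for 24, 48 or 72 h. Control cells were untreated, with the line name MDA_Parental, and no time is given for them, so exposure cannot be told apart from time in culture or from any difference between the 2 line names. Each of the 4 conditions had 2 ZEB1 libraries.

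Site counts summed to 1130706 to 3561455 per library, and were highest in control. The 2 libraries of a condition differed by less than sampling noise (chi-square per degree of freedom 0.830 to 0.951, over sites with 20 or more counts), so they were counted as 1 sample. Values are pooled counts scaled to library size (CPM), intervals are 95% and cover counting error only, and adjusted p-values (edgeR, quasi-likelihood test) compare these libraries and not cultures. A site was called where the adjusted p was under 0.05 and the difference at least 2-fold. CPM values were scaled so that sites are centred on each other (TMM), so "higher" and "lower" mean relative to the other sites. With the peak caller's background floor as the scale, the median log2 fold change of all 46436 tested sites was -0.91, -1.42 and -1.50 after 24, 48 and 72 h, and directions that turn over under that scale are given below.

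The mature strands shown first belong to microRNAs studied for their part in EMT, in the let-7 family or in responses to stimuli, whose genes had a site (RefSeq, GRCh38.p14, 5′ to 3′, seed in capitals). They identify the small RNA of each gene that lies near a site, and place together those with a common seed: let-7a and let-7i, and miR-132 and miR-212, share all 7 seed bases.
miR-155-5p: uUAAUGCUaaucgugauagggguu
let-7a-5p: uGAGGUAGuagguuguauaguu
let-7i-5p: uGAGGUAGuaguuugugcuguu
miR-222-3p: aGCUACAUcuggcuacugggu
miR-210-3p: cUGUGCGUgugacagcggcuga
miR-132-3p: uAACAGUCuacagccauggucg
miR-212-3p: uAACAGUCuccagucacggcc
miR-193a-3p: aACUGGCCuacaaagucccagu
miR-1199-5p: cCUGAGCCcgggccgcgcag
miR-663a: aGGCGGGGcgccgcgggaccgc

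The next set belongs to genes whose sites are described in full below. They were taken from those with the largest differences between treated and untreated cells, or between 72 and 24 h, among sites above the median abundance. Those of miR-378h and miR-378a, a better known relative from another gene, are given together because their seeds are the same.
miR-6124: gGGAAAAGgaagggggagga
miR-2110: uUGGGGAAacggccgcugagug
miR-3936: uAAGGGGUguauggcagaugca
miR-647: gUGGCUGCacucacuuccuuc
miR-1292-5p: uGGGAACGgguuccggcagacgcug
miR-762: gGGGCUGGggccggggccgagc
miR-6077: gGGAAGAGcuguacggccuuc
miR-8078: gGUCUAGGcccggugagagacuc
miR-6075: aCGGCCCAggcggcauuggug
miR-378h: aCUGGACUuggugucagaugg
miR-378a-3p: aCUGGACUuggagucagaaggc

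A pair of promoters under a site is shown because each holds the E-box CAGGTG, given in capitals on the strand of the gene. The first starts MIR210HG, the host transcript of miR-210 (minus strand, chr11:568408-568707). The other starts MISP3, beside MIR1199 (plus strand, chr19:14072536-14072835), and carries the motif at 2 positions.
MIR210HG promoter: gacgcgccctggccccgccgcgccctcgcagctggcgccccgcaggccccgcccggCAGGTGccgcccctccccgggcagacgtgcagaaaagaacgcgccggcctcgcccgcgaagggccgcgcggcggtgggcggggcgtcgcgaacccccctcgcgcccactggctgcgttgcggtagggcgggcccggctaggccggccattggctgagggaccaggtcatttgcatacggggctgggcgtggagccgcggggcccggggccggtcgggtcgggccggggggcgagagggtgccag
MISP3 promoter: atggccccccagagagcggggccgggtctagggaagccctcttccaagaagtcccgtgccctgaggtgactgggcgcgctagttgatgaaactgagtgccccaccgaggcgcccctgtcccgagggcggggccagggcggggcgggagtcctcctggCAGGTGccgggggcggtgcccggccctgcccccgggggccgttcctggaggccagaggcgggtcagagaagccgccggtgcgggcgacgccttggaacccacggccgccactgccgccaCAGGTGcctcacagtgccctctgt

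How often the motif occurred under the sites was counted in promoters and in hairpins. CAGGTG on either strand was present in 14.2% of the 148 promoter windows of 300 bases that the sites overlapped, and in 20.6% of all RefSeq promoter windows. CAGGTA, a related E-box, was present in 8.78% of the overlapped windows and in 9.83% of all. Of 82 hairpins under a site, 9.76% held CAGGTG and 3.66% held CAGGTA, and the shares among all 1560 hairpins were 7.44% and 3.65%. A hexamer in such a window is a description and not a bound site.

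The 282 sites lay near 252 of 1913 microRNA genes on 23 chromosomes. Of these genes, 33 had more than 1 site, and 14 sites had a pair of microRNA genes within reach. The microRNA gene itself was overlapped by 92 sites (32.6%), and 168 (59.6%) lay within 500 bp of it. Where the strand was known (237 sites), the midpoint was upstream of the hairpin at 146 sites, inside it at 17 and downstream at 74.

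Many of these positions were also promoters or ends of protein-coding genes. A coding gene end, meaning either its start or its finish here and below, was within 1 kb of 132 of the sites (46.8%), against 22.2% of all consensus sites. A further 89 (31.6%) were inside a coding gene, against 38.6% of all, and 61 (21.6%) outside coding genes, against 39.2%. The sites were wider than the rest, with a median width of 300.5 bp against 229 bp for all consensus sites. Signal per length in control cells was close, at a median of 48.6 CPM per kb and 47.2 CPM per kb over all consensus sites. A ZEB1 signal here can therefore belong to a neighbouring coding gene as well as to the microRNA, and these data cannot tell them apart.

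Fewer of the sites held a deposited peak the longer the cells were exposed. A peak was present at 246 sites (87.2%) in control. At 24 h 183 sites (64.9%) had one, at 48 h 143 (50.7%) and at 72 h 98 (34.8%). Over all consensus sites the shares were 86.6%, 61.3%, 39.4% and 32.1%. All 4 peak lists held 79 of the sites (28.0%, against 24.2% of all consensus sites), and 68 (24.1%, against 29.9%) had a peak in control alone. Peaks were deposited for each condition, so these shares have no replicate check. The counts summed over sites, which are not the sequencing depth, fell in the same order.

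At 24 h, 27 of the 259 tested sites (10.4%) had less signal than in control and 31 (12.0%) had more. Over all 46436 tested sites, 13.5% were lower and 14.8% were higher. At 48 h, 10 (3.86%) were lower and 32 (12.4%) higher, beside a background of 7.55% lower and 10.5% higher. At 72 h the counts were 11 lower (4.25%) and 27 higher (10.4%), beside 8.55% and 12.2% over all tested sites. The median log2 fold change of the tested sites at microRNA genes was 0.07, 0.08 and 0.01 at the 3 times. With a coefficient of variation of 0.2 between cultures assumed in place of the spread between libraries, 6.56% were lower and 6.95% higher at 24 h. With the background floor as the scale, 44.8%, 67.6% and 73.7% were lower and 2.70%, 4.25% and 0.386% higher at the 3 times. The medians on that scale were -0.86, -1.34 and -1.49 at these sites and -0.91, -1.42 and -1.50 over all tested sites. Shares over all tested sites under that scale or the assumed variation were not computed. The remaining 23 sites were too shallow to test, with at most 8.02 CPM in any condition.

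**Figure D1:**
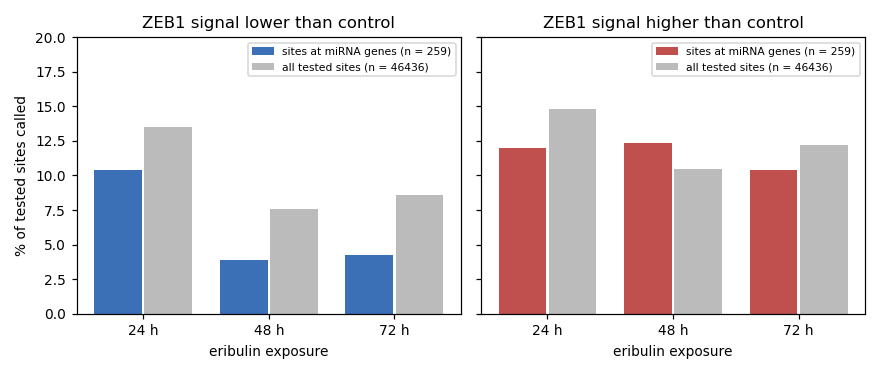
Share of tested sites called lower (left panel) or higher (right panel) than control after 24, 48 and 72 h of eribulin, for sites at microRNA genes (coloured bars, n = 259) and all tested sites (grey bars, n = 46436), in percent. The shares lower at the microRNA genes were 10.4%, 3.86% and 4.25%, each below the share of all sites, and the share higher was above that of all sites at 48 h.

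Over the 3 comparisons with control, 88 tested sites were called at least once and 171 in none. Sites lower at one or more times numbered 35 (13.5%, against 19.4% of all tested sites), and sites higher 54 (20.8%, against 22.7%). At all 3 times, 5 sites (1.93%) were lower, against 3.08% of all tested sites: 1 at MIR6124, 2 at MIR612, 1 at MIR3936 and 1 at MIR4496. Higher at all 3 times were 8 sites (3.09%), against 3.92% of all tested sites, at MIR6077, MIR3658, MIR8078, MIR7112, MIR1302-3, MIR3650, MIR378H and MIR8075. Opposite calls occurred once, at MIR3180-4. At coding gene ends, 7 of 121 sites tested (5.79%) had less and 12 (9.92%) more signal at 24 h than in control, against 7.67% and 10.3% of all 10653 sites tested in such positions. At 48 h none was lower and 12 (9.92%) were higher, against 2.41% and 6.12%. At 72 h, 2 (1.65%) were lower and 10 (8.26%) higher, against 2.20% and 8.27%.

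Sites that overlapped the microRNA gene were set beside those that did not. At 24 h, 8 (8.79%) of the 91 tested sites that overlapped the microRNA gene had less signal and 15 (16.5%) had more. Their median log2 fold change was 0.28. Among the 168 tested sites beside the gene, 19 were lower and 16 higher, with a median of 0.01. No test of this difference was run, because the sites are not replicates. The background shares at 24 h were 13.5% for losses and 14.8% for gains. Gains over the gene were thus close to background, and losses were below it. Over the gene, losses and gains came to 2.20% and 7.69% at 48 h, beside a background of 7.55% and 10.5%. At 72 h they came to 5.49% and 8.79%, beside 8.55% and 12.2%. At 48 h, 2 were lower and 7 higher among the overlapping sites, and 8 lower and 25 higher among those beside the gene, with medians of 0.08 and 0.07. At 72 h, 5 were lower and 8 higher among the overlapping sites and 6 lower and 19 higher among those beside the gene, with medians of -0.01 and 0.05, so the higher median of the overlapping sites was seen at 24 h and not at the later times.

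**Figure D2:**
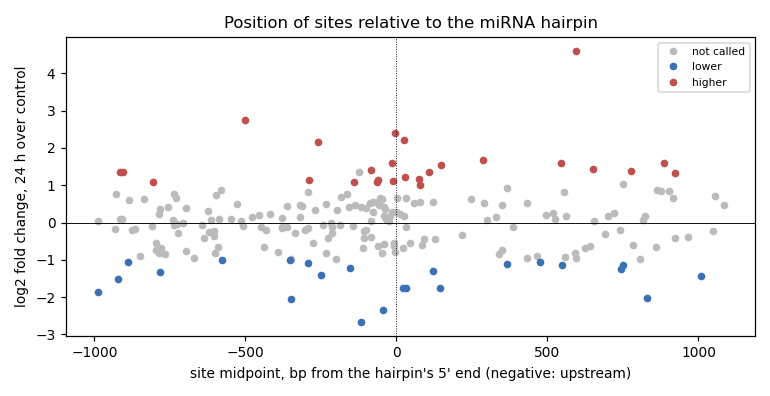
Log2 fold change of ZEB1 signal at 24 h over control (vertical axis) against the distance of the site midpoint from the 5′ end of the hairpin in bp (horizontal axis, negative upstream), for tested sites whose gene has a known strand; blue points were called lower, red points higher and grey points not called. Called sites are spread on both sides of the hairpin, and the highest point is the site at MIR647 with 4.61.

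ZEB1 sites were also looked up at the 146 microRNA genes on 8 lists of well studied microRNAs. Over all RefSeq microRNA genes, 252 of 1913 had a site within 1 kb. The lists of MYC and E2F clusters, p53 and cell cycle microRNAs, the miR-23, miR-27 and miR-24 clusters, and microRNAs restricted to other tissues had no member site. The other 4 lists had 12 sites, of which 10 were tested. Among EMT-promoting microRNAs, 3 of 29 genes had a site, and at 24 h 1 site was lower and 1 higher, with none called at 48 or 72 h. Among EMT-restraining microRNAs, 2 of 32 genes had 3 sites, none of them called at any time. Of the let-7 genes, 2 of 12 had 4 sites, and both tested sites were higher at 24 h, while 1 was at 48 h and 0 were at 72 h. The stimulus-response list had 6 sites at 7 of 17 genes, which include 4 sites also counted on the EMT lists, with 1 lower and 1 higher at 24 h and none called later.

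ZEB1 signal over MIR155 was higher at 24 h than in control, and lower again at 72 h than at 24 h. MIR155 encodes miR-155, a microRNA of immune activation that also promotes invasion in breast cancer models. Its site overlapped the hairpin gene, inside the host transcript MIR155HG (chr21:25573958-25574149). The libraries held 3.48 and 2.97 CPM in control, 20.01 and 17.2 CPM at 24 h, 6.18 and 3.02 CPM at 48 h, and 3.46 and 8.33 CPM at 72 h, so that both 24 h libraries stood above all others. The log2 fold change at 24 h was 2.50 (interval 1.81 to 3.30; edgeR adjusted p = 2.83e-13). It was 0.49 (-0.66 to 1.59) at 48 h and 0.83 (-0.28 to 1.91) at 72 h, neither of which passed the test. Signal at 72 h was below that at 24 h by a log2 difference of -1.67 (-2.66 to -0.82; edgeR adjusted p = 0.000124). On the background floor scale the 24 h value was 1.58, and the 48 h and 72 h values were below 0, at -0.91 and -0.65.

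Both tested let-7 sites were higher at 24 h. Let-7 microRNAs restrain RAS, MYC and HMGA2. The site at MIRLET7A2 overlapped the hairpin gene within MIR100HG (chr11:122146581-122146776). It had 5.50 and 10.2 CPM in control, 24.6 and 16.2 CPM at 24 h, 16.2 and 13.6 CPM at 48 h, and 8.65 and 8.33 CPM at 72 h. Its log2 fold change was 1.40 (0.88 to 1.95; edgeR adjusted p = 3.08e-07) at 24 h, 0.94 at 48 h, which passed the test without reaching 2-fold (edgeR adjusted p = 0.0106), and 0.14 at 72 h. The 2 libraries of each treated time were above both control libraries at 24 and 48 h, and at 72 h they lay between them.

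The MIRLET7I site lay 914.5 bp upstream of the hairpin, in MIRLET7IHG (chr12:62602491-62603052). Its libraries had 8.69 and 9.89 CPM in control, 24.6 and 23.2 CPM at 24 h, 16.2 and 26.4 CPM at 48 h, and 16.4 and 10.2 CPM at 72 h. The log2 fold change was 1.36 (0.88 to 1.86; edgeR adjusted p = 5.56e-08) at 24 h, 1.20 (0.66 to 1.76; edgeR adjusted p = 8.01e-05) at 48 h and 0.53 (-0.15 to 1.19) at 72 h. On the background floor scale, the 24 h values of MIRLET7A2 and MIRLET7I were 0.48 and 0.44, and neither passed the test. The 48 h values then turned to -0.47 and -0.22. A further 2 narrow sites at MIRLET7I, with at most 3.42 CPM in any condition, were too shallow to test.

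At MIR222 the signal was lower at 24 h than in control. MiR-222 promotes EMT and is abundant in many breast cancers without the estrogen receptor, and the site lay 989 bp from its gene, in MIR222HG (chrX:45748016-45748210). The libraries had 27.2 and 24.4 CPM in control, 6.67 and 7.54 CPM at 24 h, 24.0 and 20.4 CPM at 48 h, and 15.6 and 15.7 CPM at 72 h. Both 24 h libraries were the lowest of all 8. The log2 fold change was -1.86 (-2.51 to -1.28; edgeR adjusted p = 9.52e-12) at 24 h and -0.23 (-0.68 to 0.21) at 48 h. At 72 h it was -0.72, which passed the test without reaching 2-fold (edgeR adjusted p = 0.0153), and the signal was then above that at 24 h by a log2 difference of 1.13 (edgeR adjusted p = 0.00832).

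No other listed site was called at any time. MIR210, the classical hypoxia-induced microRNA, has the promoter site shown above (chr11:568395-568784), with 37.0 CPM in control, 21.3 CPM at 24 h, 29.0 CPM at 48 h and 27.3 CPM at 72 h. The log2 value of -0.80 at 24 h (-1.18 to -0.43; edgeR adjusted p = 3.21e-05) passed the test without reaching 2-fold. One site spanned MIR132 and lay near MIR212, neuronal activity microRNAs of one cluster (chr17:2049715-2050118), with 13.9, 10.2, 8.40 and 11.6 CPM in control and at 24, 48 and 72 h. None of its differences passed the test, nor did those at MIR663A (13.3, 9.46, 15.3 and 8.05 CPM).

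MiR-1199 has been described as a microRNA in mutual repression with ZEB1, and its gene had a pair of sites in and beside MISP3. The site on the MISP3 promoter shown above (chr19:14072013-14072844) had 29.2 CPM at 24 h and 50.5 CPM at 72 h. Its log2 fold change over control was -0.18 (-0.53 to 0.15) at 24 h and 0.61 (0.27 to 0.94; edgeR adjusted p = 0.00206) at 72 h, the second of which turned to -0.90 on the background floor scale. The site over the hairpin gene (chr19:14073383-14074036) had 0.47 (0.07 to 0.87; edgeR adjusted p = 0.033) at 24 h and -0.40 (-1.02 to 0.18) at 72 h. MIR193A, whose microRNA suppresses growth in several cancers, had 0.76 (0.07 to 1.47; edgeR adjusted p = 0.0422) at 24 h, or -0.16 on the background floor scale.

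**Figure D3:**
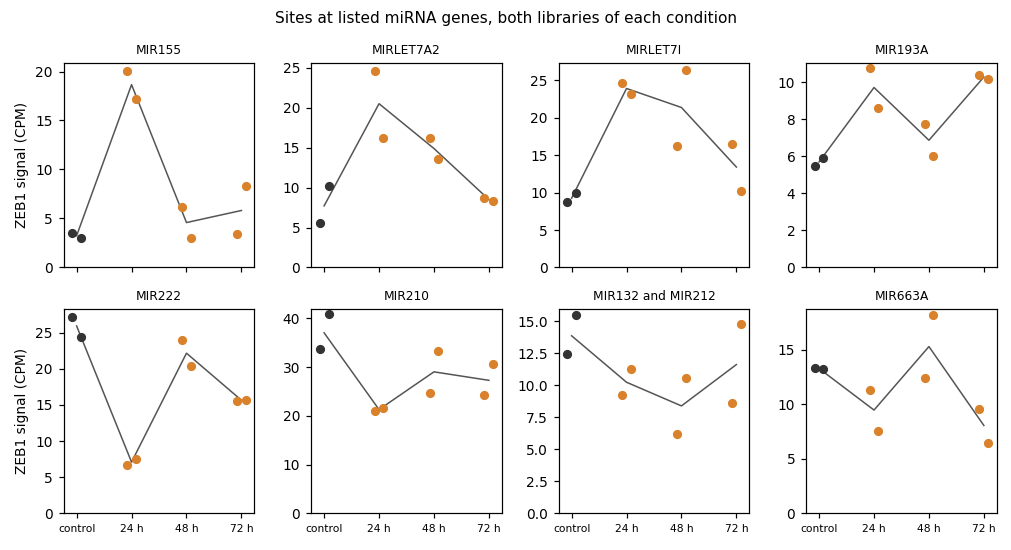
ZEB1 signal in CPM (vertical axes, from 0) at sites of 8 listed microRNA genes in control (black) and after 24, 48 and 72 h of eribulin (orange); points are the 2 libraries of each condition and lines join the pooled values. MIR155, MIRLET7A2 and MIRLET7I peak at 24 h, and MIR222 is lowest there with 6.67 and 7.54 CPM.

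Lasting losses were found inside NEAT1, which encodes the long RNA that builds paraspeckles and where MIR612 is annotated with 3 sites. The widest of them (chr11:65445068-65445813) had 95.9 and 109.5 CPM in control, 13.9 and 17.8 CPM at 24 h, 42.5 and 48.3 CPM at 48 h, and 41.5 and 49.1 CPM at 72 h. Every treated library was below both control libraries. In log2 units it differed from control by -2.69 (-3.10 to -2.31; edgeR adjusted p = 3.12e-52) at 24 h, -1.17 at 48 h and -1.18 at 72 h. Signal at 72 h was above that at 24 h by a log2 difference of 1.51 (1.04 to 2.00).

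The other MIR612 sites moved in the same way at 24 h. The site 79.5 bp from the gene (chr11:65444567-65444706) had 2.10 CPM at 24 h, against 21.3 CPM in control, or -3.30 on the log2 scale (-4.58 to -2.32; edgeR adjusted p = 6.46e-17). It stayed lower at 48 h (-1.70) and 72 h (-1.40). The third (chr11:65444824-65444925) was lower by a log2 fold change of -2.79 at 24 h and was -0.83 at 48 h and -0.97 at 72 h. All 3 lie in the body of the same gene, so they are not independent.

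MIR6124 lies within MICAL2, whose protein oxidises actin. The site over its gene (chr11:12163400-12163731) had 48.9 CPM in control, 7.62 CPM at 24 h, 19.9 CPM at 48 h and 17.0 CPM at 72 h. On the log2 scale it differed from control by -2.67 (-3.28 to -2.13; edgeR adjusted p = 5.15e-29) at 24 h, -1.30 at 48 h and -1.52 at 72 h. A stronger site 542 bp from the same gene (chr11:12164122-12164496) changed much less, with 63.9 CPM at 24 h against 102 CPM in control, a log2 fold change of -0.68 (-0.90 to -0.46). The 2 sites also differed in their peaks: the first held a peak in control alone, and the second in all 4 conditions.

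A site at MIR4496 and a site at MIR3936 were lower at every time, and little is known of either microRNA. The MIR4496 site overlapped the gene (chr12:108635645-108635887) and had 23.0 CPM in control, 4.47 CPM at 24 h, 2.67 CPM at 48 h and 7.16 CPM at 72 h. The lowest log2 fold change was that at 48 h, -3.07 (-4.44 to -2.02; edgeR adjusted p = 4.18e-13). The MIR3936 site with these losses (chr5:132364462-132364613) had 19.9, 8.15, 8.02 and 4.03 CPM in control and at 24, 48 and 72 h, with the lowest value of -2.29 (-3.47 to -1.34; edgeR adjusted p = 8.7e-08) at 72 h. Neither of these sites held a peak at any treated time. A second MIR3936 site spans the mature strand (chr5:132365264-132365604). Its log2 fold changes were -0.82, -0.12 and -0.42 at 24, 48 and 72 h, none of them 2-fold.

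A second group of sites was lower at 24 h and at or near its control level at 72 h. MIR2110 overlapped a site at an end of CCDC186, a gene of dense-core vesicle formation (chr10:114174088-114174970). Its libraries had 141.6 and 140.2 CPM in control, 31.3 and 36.6 CPM at 24 h, 96.6 and 92.1 CPM at 48 h, and 142.8 and 140.7 CPM at 72 h. The log2 fold change was -2.05 (-2.33 to -1.79; edgeR adjusted p = 5.47e-54) at 24 h, -0.58 at 48 h and 0.01 (-0.18 to 0.19) at 72 h. Signal was thus above the 24 h level at 72 h by a log2 difference of 2.06 (1.76 to 2.37). All 4 conditions held a peak there.

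MIR1289-1, beside the centrosome gene CEP250 (chr20:35454533-35455506), followed the same course, with 187, 65.7, 134 and 197 CPM in control and at 24, 48 and 72 h. In log2 units it differed from control by -1.51 (-1.71 to -1.31) at 24 h and 0.08 (-0.08 to 0.24) at 72 h. MIR2116, in the myosin gene MYO1E (chr15:59170319-59170548), had 4.47 CPM at 24 h, against 18.4 CPM in control, a log2 fold change of -2.02 (-2.87 to -1.30). It was -0.55 (-1.20 to 0.05) at 72 h. On the background floor scale none of these sites returned to its control level, since the 72 h values of MIR2110 and MIR1289-1 were then -1.50 and -1.42.

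At 2 further sites the 72 h signal passed that of control. MIR6732 lies in ZC3H12A, an RNase gene that limits inflammation (chr1:37479689-37480068), and had 80.0, 39.7, 72.9 and 140 CPM in control and at 24, 48 and 72 h. Relative to control, its log2 value was -1.01 (-1.28 to -0.75) at 24 h and 0.80 (0.59 to 1.01; edgeR adjusted p = 1.8e-12) at 72 h. MIR6084, in the mitophagy kinase gene PINK1 (chr1:20633367-20633976), had -0.56 (-1.24 to 0.08) at 24 h and 1.32 (0.81 to 1.83; edgeR adjusted p = 2.58e-06) at 72 h. On the background floor scale the 72 h values turned to -0.70 at MIR6732 and -0.18 at MIR6084.

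**Figure D4:**
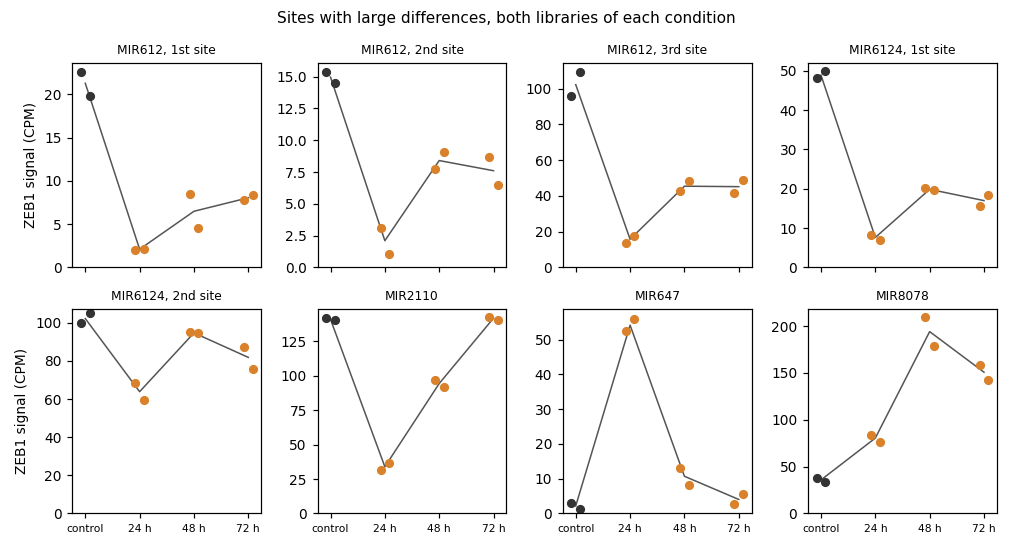
ZEB1 signal in CPM (vertical axes, from 0) in control (black) and after 24, 48 and 72 h of eribulin (orange) at 8 sites with large differences; points are the 2 libraries of each condition and lines join the pooled values. The first MIR612 and MIR6124 sites stay below control, MIR2110 is back at 142.8 and 140.7 CPM at 72 h, MIR647 is high at 24 h, and MIR8078 is highest at 48 h.

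Among gains, the site at MIR647 stood apart at 24 h. It lies in UCKL1, a pyrimidine salvage kinase gene (chr20:63941895-63942366), with MIR1914 in reach as well, and had 52.3 and 56.0 CPM at 24 h, against 2.90 and 1.32 CPM in control. It was 10.7 CPM at 48 h and 4.03 CPM at 72 h, so that signal at 72 h was below that at 24 h by a log2 difference of -3.73 (-4.90 to -2.80). The first site at MIR1292, next to the nucleolar gene NOP56 (chr20:2652329-2652706), had 23.6 CPM at 24 h, against 5.24 CPM in control, or 2.16 on the log2 scale (1.59 to 2.79; edgeR adjusted p = 9.57e-14). A second MIR1292 site (chr20:2653265-2653341) had another course, with log2 fold changes of 0.09, 2.64 and 2.38 at 24, 48 and 72 h. MIR4280 (chr5:87113974-87114164) had 1.61 (1.05 to 2.21) at 24 h and -0.12 (-1.15 to 0.81) at 72 h.

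At MIR762 and MIR3180-4, signal was above control at 24 h and below it at 72 h. MIR762, at an end of BCL7C, which encodes a chromatin remodelling subunit (chr16:30894073-30894465), had 10.8, 20.8, 11.5 and 4.92 CPM in control and at 24, 48 and 72 h. Its log2 fold change was 0.94 (0.46 to 1.43; edgeR adjusted p = 0.000248) at 24 h and -1.12 (-2.20 to -0.21; edgeR adjusted p = 0.0255) at 72 h. The MIR3180-4 site had 1.00 (0.57 to 1.44) at 24 h and -1.04 (-1.98 to -0.22) at 72 h. On the background floor scale, the 24 h values were 0.01 at MIR762 and 0.07 at MIR3180-4, and neither passed the test. MIR3180-1 was 0.29 (-0.10 to 0.67) at 24 h, which did not pass, and -1.17 (-1.92 to -0.51) at 72 h. The other 3 MIR3180 sites were not called at any time, with -0.51 to -0.74 at 72 h. Their mature microRNA is the same in several genes, and reads of such copies may have been split or shared by the alignment.

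Some gains were called at all 3 times relative to the other sites. The MIR6077 site over the hairpin gene (chr1:148388102-148388455) had 4.16 CPM in control, 22.3 CPM at 24 h, 17.6 CPM at 48 h and 17.9 CPM at 72 h. Relative to control, its log2 value was 2.40 (1.78 to 3.11; edgeR adjusted p = 5.71e-15) at 24 h, 2.06 at 48 h and 2.09 at 72 h. A second MIR6077 site (chr1:148388586-148389015) had 0.25, 0.37 and 0.69 at 24, 48 and 72 h, and was not called at any time. MIR378H, in FAXDC2 (chr5:154829836-154830171), had 5.71, 17.4, 13.8 and 22.8 CPM in control and at 24, 48 and 72 h. Relative to control, it had log2 values of 1.59 and 1.26 at 24 and 48 h and 1.99 at 72 h (1.36 to 2.65; edgeR adjusted p = 5.01e-09), and the 48 h value turned to -0.16 on the background floor scale. On that scale the 72 h values were 0.60 at the site over MIR6077 and 0.49 at MIR378H, and neither passed the test.

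Many of the late gains lay near chromosome ends. Of the 32 sites higher at 48 h, 18 (56.3%) lay within 5 Mb of an end, and of the 27 higher at 72 h, 14 (51.9%) did. Among all sites called higher, 29.5% at 48 h and 24.9% at 72 h lay there. At 24 h the share was 16.1% of the 31 higher sites, and 11.1% of all sites called higher. Of all tested sites, 18.2% at microRNA genes and 12.5% overall were that close to an end. These shares describe positions, and neighbouring sites are not independent.

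**Figure D5:**
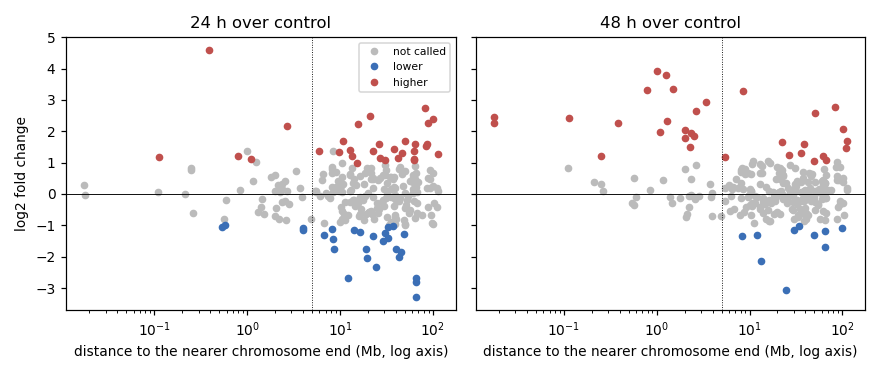
Log2 fold change of ZEB1 signal over control (vertical axis) at 24 h (left) and 48 h (right) against the distance of each tested site at a microRNA gene from the nearer chromosome end in Mb (logarithmic horizontal axis); blue points were called lower, red points higher and grey points not called, and the dotted line marks 5 Mb. At 48 h, 18 of 32 red points lie left of the line, and at 24 h 5 of 31 do.

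A late gain of high signal lay over MIR8078. Its site lies over the hairpin gene close to the end of chromosome 18 (chr18:112207-112322), and its libraries had 37.4 and 34.0 CPM in control, 84.2 and 76.5 CPM at 24 h, 209.3 and 179.0 CPM at 48 h, and 158.4 and 142.5 CPM at 72 h. Every treated library was above both control libraries. The log2 fold change was 1.17 at 24 h, 2.44 (2.21 to 2.67; edgeR adjusted p = 8.71e-72) at 48 h and 2.07 at 72 h, or 0.24, 1.01 and 0.57 on the background floor scale, the first of which did not pass the test. A peak was listed at 24 and 48 h and neither in control nor at 72 h.

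At 3 weaker sites the signal was highest at 48 h. MIR6075, in the phospholipid enzyme gene LPCAT1 (chr5:1511316-1511575), had 2.93, 1.84, 30.6 and 11.2 CPM in control and at 24, 48 and 72 h. Relative to control, it had a log2 value of 3.35 (2.65 to 4.19; edgeR adjusted p = 3.49e-22) at 48 h and 1.91 at 72 h. MIR7112, in the ribosome biogenesis gene BOP1 (chr8:144262907-144263047), had 1.21 (0.13 to 2.39; edgeR adjusted p = 0.0336) at 24 h, 3.32 (2.47 to 4.36) at 48 h and 2.44 (1.46 to 3.57) at 72 h. MIR8071-1 (chr14:105621806-105621927), a gene with copies, had 1.02 (-0.35 to 2.51) at 24 h, which did not pass the test, 3.80 (2.83 to 5.07) at 48 h and 2.63 (1.49 to 4.01) at 72 h. With the background floor as the scale, it was the 1 site at a microRNA gene still called higher at 72 h.

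Between 72 and 24 h of treatment, 22 of the 259 tested sites (8.49%) were lower at 72 h and 40 (15.4%) were higher. Over all tested sites, 9.26% were lower and 12.1% higher. The median log2 difference was 0.11 at these sites. The comparison uses no control library. With the background floor as the scale, 26.3% were lower and 2.70% higher, and the shares over all tested sites were not computed.

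The strongest signal in untreated cells lay on repeated DNA. The site near MIR10396A on the short arm of chromosome 21 (chr21:8987904-8988731) had 578 CPM in control, 649 CPM at 24 h, 896 CPM at 48 h and 489 CPM at 72 h. MIR3648-2 (chr21:8986731-8987637) lies next to it, and MIR3648-1 (chr21:8208580-8208942) is a copy on the same arm. These 2 sites had the same course, with 202.5 and 159.6 CPM in control, 328 and 276 CPM at 24 h, 348 and 287 CPM at 48 h, and 194 and 161 CPM at 72 h. Reads of such copies can be shared between them, so their levels are uncertain. In all, 22 of the 282 sites lay at a gene whose mature microRNA is also made by another gene.

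Of the other sites with the highest signal in control, those at MIR3652, MIR639 and MIR638 lie at the genes HSP90B1, TECR and DNM2. MIR3652, at the chaperone gene HSP90B1 (chr12:103929720-103930527), had 122 CPM in control, 107 CPM at 24 h, 102 CPM at 48 h and 77.8 CPM at 72 h, a log2 fold change of -0.64 (-0.89 to -0.41) at 72 h. MIR639, in the lipid enzyme gene TECR and beside the chaperone gene DNAJB1 (chr19:14529242-14529676), was -0.65 (-0.91 to -0.39) at 72 h. MIR638, at an end of the endocytosis gene DNM2 (chr19:10717436-10718128), was 0.32 (0.15 to 0.49) at 24 h, or -0.61 on the background floor scale, and -0.50 (-0.76 to -0.25) at 72 h. None of these 3 sites was called at any time, and all held a peak in all 4 conditions.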

How the data were processed

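The deposited count table holds whole counts over 52981 consensus sites for 8 ZEB1 libraries, without normalization, and 2 IgG libraries of untreated cells were not analysed here. The deposited peak lists, 1 per condition, give a fold enrichment (a ratio) and −log10 p-values in the layout of MACS2. Per the submitters' processing notes, the tools include deepTools, featureCounts, bedtools 2.30.0, MACS2 2.1.1, Picard, Bowtie2 2.2.6, cutadapt 2.4 and bcl2fastq 2.20.0.422, with hg38 and in no stated role. The labels describe CUT&RUN and also mention Tn5-cut DNA, which that assay does not use, so the protocol is uncertain.

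All libraries entered 1 edgeR 4.0.16 fit (R 4.3.3) of the whole table with TMM factors, filterByExpr by condition and condition as the only term, with 2-sided quasi-likelihood F tests and Benjamini-Hochberg adjustment over 46436 sites. The common dispersion was 9.77e-05, a coefficient of variation of 0.00988. Fold change intervals are exact conditional binomial ones of pooled counts. The background floor of the peak caller was solved from the deposited fold and −log10 p columns of 4000 sampled peaks per condition, as the commonest value. Only 197 of these peaks held that value in control, and 175, 150 and 75 after 24, 48 and 72 h, so the estimate is thin. The floor was 108%, 101% and 95.2% of control after 24, 48 and 72 h. Genes, mature strands and promoters came from RefSeq tables of GRCh38.p14, where 232 of 252 nearby microRNAs had a sequence. Sequences on chromosome 8 are not shown. A chromosome end was taken as the last RefSeq gene end. Sites were named by rule: per time and direction, the 6 called sites with the largest change among those above the median abundance, the 10 highest in control, the 3 with the smallest p per list, and the 5 with the largest change per direction at 72 h against 24 h. A result at 1 site that the rule names is not reported here. Named outside the rule, after their values were seen, are the third MIR612 site and the sites called at all 3 times. The second sites at MIR3936, MIR1292 and MIR6077 were also added in that way. The sites and lists were chosen with earlier results of these data known. The fit was tested on simulated data. Alternatives were another tool (DESeq2 1.42.0), other scalings, filters and windows, and leaving out each library.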

Additional observations from a re-analysis of the deposited data

Results flagged for a closer look

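ZEB1 signal differed between the 72 h and the 24 h libraries at 20 named sites, each called when the 72 h libraries were tested directly against the 24 h libraries (edgeR, adjusted p under 0.05 and at least 2-fold). The log2 difference, 72 h minus 24 h, was below 0 at MIR647 (-3.73), MIR762 (-2.06), MIR3180-4 (-2.04), MIR4280 (-1.73), MIR155 (-1.67), the first MIR1292 site (-1.63), MIR3180-1 (-1.46) and MIRLET7A2 (-1.26). It was above 0 at MIR222 (1.13), the site over MIR6124 (1.15), MIR7112 (1.23), MIR2116 (1.47), both named MIR612 sites (1.51 and 1.90), MIR1289-1 (1.58), MIR8071-1 (1.61), MIR6732 (1.81), MIR6084 (1.88), MIR2110 (2.06) and MIR6075 (2.56). Both times were compared with the same control libraries, which this comparison leaves out. Each time rests on 1 sample, so a difference between cultures cannot be told apart from one between times.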

How the results depend on the processing

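The scale, the assumed spread and the fold limit moved the shares of sites called, and the cause was not tested. Shares lower and higher, in percent of tested sites at microRNA genes, were as follows. Except where given, shares over all tested sites were not computed under these alternatives. With the background floor the shares at microRNA genes were 44.8 and 2.70 after 24 h, 67.6 and 4.25 after 48 h, 73.7 and 0.386 after 72 h, and 26.3 and 2.70 for 72 h against 24 h. The median log2 fold changes were then -0.86, -1.34 and -1.49, and over all tested sites -0.91, -1.42 and -1.50. Scaling to sites of low count (the lowest of 3 equal groups) gave 18.5, 6.18 and 6.95 lower, with medians of -0.21, -0.12 and -0.19. Over all tested sites those medians were -0.26, -0.21 and -0.20. With an assumed coefficient of variation of 0.2 they were 6.56 and 6.95 after 24 h, 0.772 lower after 48 h, 1.16 and 5.41 after 72 h, and 1.93 and 3.47 for 72 h against 24 h. Without the fold limit they were 23.9 and 26.6, 11.2 and 22.8, 13.1 and 19.3, and 17.8 and 24.7. Of all 46436 tested sites, 12467 were then lower and 13006 higher at 24 h, and 7844 and 7796 at 48 h. At 72 h these counts were 7916 and 8760, and for 72 h against 24 h 7617 and 9020. DESeq2 gave 2.32 lower after 48 h, 2.32 and 6.18 after 72 h, and 5.41 and 6.56 for 72 h against 24 h. Among sites overlapping the gene, 2.20 were lower and 7.69 higher at 48 h, 8.79 were higher at 72 h against 24 h, and the 24 h median was 0.28. Within 500 bp, 2.56 were lower at 48 h. More than 1 kb from coding gene ends, 7.25 were lower at 48 h and 6.52 at 72 h, and the 24 h median was -0.0459. Over all tested sites that far from ends, 9.02 inside and 9.14 outside coding genes were lower at 48 h. At 72 h these shares were 10.3 and 10.6.

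Leaving out 1 library at a time gave 10.8 to 12.0 lower and 10.0 to 12.7 higher at 24 h, 2.70 to 3.86 and 11.2 to 13.9 after 48 h, 2.70 to 3.86 and 8.88 to 10.4 after 72 h, and 6.95 to 8.11 and 10.8 to 13.1 for 72 h against 24 h. The medians were then -0.00246 to 0.0857 at 24 h, 0.05 to 0.11 at 48 h and -0.0178 to 0.0668 at 72 h. Same-numbered libraries did not vary together (correlations -0.0046 to 0.0139), so the numbers do not pair them. A fit with the replicate number as a block gave 10.0 and 11.6 after 24 h, 3.86 and 12.4 after 48 h, 4.25 and 10.4 after 72 h, and 8.49 and 15.4 for 72 h against 24 h. Restriction to single-copy microRNA genes, chosen after seeing the data, moved no share beyond 1.5 times.

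On the background floor, log2 values of named sites turned below 0 at MIR3648-1 (-0.14, -0.58 and -1.49 after 24, 48 and 72 h), MIR3648-2 (-0.24 and -0.64 at 24 and 48 h) and MIR10396A (-0.77 and -0.79, and -0.11 at 24 h with the scaling to sites of low count). At 24 h alone they did so at MIR638 (-0.61), MIR1199 over its gene (-0.46) and MIR3180-1 (-0.64). At 24 and 48 h MIR193A had -0.16 and -1.14. At 48 h the values were -0.47 at MIRLET7A2, -0.22 at MIRLET7I, -0.75 at MIR6084, -0.50 at the first MIR1292 site, -1.18 at MIR3180-4, -1.33 at MIR762, -0.82 at MIR4280 and -0.16 at MIR378H. At 72 h they were -1.35 at MIRLET7A2, -0.96 at MIRLET7I, -0.18 at MIR6084, -0.70 at MIR6732, -0.96 at the first MIR1292 site, -1.42 at MIR1289-1, -1.50 at MIR2110 and -0.90 at the MISP3 promoter site. The second MIR6124 site had -0.21 at 72 h against 24 h. Counts within sites were lowest at 72 h, and the 23 untested sites are below what these libraries can compare.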

Other observations

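Several sites outside the naming rule, chosen after their values were seen, add to the description of coding gene ends and developmental genes. The site at MIR4530, in the gene region of the RNA decay factor ZFP36, had 68.2 CPM in control, 20.2 CPM at 24 h, 63.4 CPM at 48 h and 47.9 CPM at 72 h, a log2 fold change of -1.75 at 24 h. The first site at MIR4638, beside TRIM41, had 166 CPM at 72 h, against 62.8 CPM in control. Its log2 fold changes were 0.82, 1.22 and 1.40 at 24, 48 and 72 h. A second MIR4638 site (chr5:181223049-181223692) had 0.78, 0.32 and 0.39, none of them 2-fold. On the background floor scale the values of the first site turned to -0.11, -0.20 and -0.11. At MIR7704, in the HOXD1 region, signal was 7.56, 12.1, 16.0 and 22.4 CPM, with a log2 fold change of 1.56 at 72 h. MIR7704 had -0.25, -0.34 and 0.06 at the 3 times on the background floor scale, none of which passed the test. The site at MIR3917, on the promoter of the microtubule regulator STMN1, had 22.7, 14.7, 21.4 and 27.7 CPM and was not called at any time.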
